A study of Mus musculus with 24 samples.

Results

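The endothelin and adrenomedullin systems and endothelial nitric oxide synthase set the calibre of blood vessels, and 8 of their genes were followed here: Edn1, Ece1, Ednra, Ednrb, Nos3, Adm, Calcrl and Ramp2. They are 8 of the 46477 gene symbols in the count table, and all 8 were among the 14325 genes that passed the filter on low counts. The set was chosen by measured values of these data, because Edn1 rose on the first postoperative day (POD1) after hepatectomy and also stood highest on POD1 after sham surgery. For these 8 genes the differences between operations at POD1, every comparison with sham POD1 and every comparison of Edn1 with sham libraries are therefore given as values with no test. RNA came from the livers of wild-type male BALB/C mice, 8 weeks of age, as cells enriched with magnetic beads for the surface proteins CD11b and Ly6G, the pair that defines granulocytic myeloid-derived suppressor cells (G-MDSCs). One arm had 70% of the liver removed (hepatectomy), and the other had the abdomen opened at the midline without resection (sham). Each operation was sampled on POD1, POD2, POD3 and POD4 with 3 libraries a group, which gave 8 groups and 24 libraries. The sources do not say whether a library came from 1 mouse or from a pool, so p-values measure the spread between these libraries.

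Endothelin-1, the peptide made from Edn1, is cut from its precursor by the protease that Ece1 encodes. It contracts smooth muscle and hepatic stellate cells through the type A receptor (Ednra), while the type B receptor (Ednrb) on endothelium releases nitric oxide and takes the peptide up. Endothelial nitric oxide synthase (Nos3) makes the gas that relaxes these cells, and adrenomedullin (Adm) dilates vessels through the receptor that Calcrl forms with its partner Ramp2. In liver, sinusoidal endothelial cells carry much of this machinery, and blood flow through the sinusoids rises in what is left of the organ when most of it is removed.

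The start regions of Edn1 and Ednrb are shown because these genes had the widest differences between operations after POD1. Each line gives the 250 bases before the RefSeq start on the gene's own strand in GRCm38.p6, at chr13:42301226-42301475 on the plus strand for Edn1 and chr14:103843702-103843951 on the minus strand for Ednrb. Capitals mark the letters CACCC on either strand (GGGTG where the match is on the other strand), the core that Krüppel-like factors bind.
Edn1: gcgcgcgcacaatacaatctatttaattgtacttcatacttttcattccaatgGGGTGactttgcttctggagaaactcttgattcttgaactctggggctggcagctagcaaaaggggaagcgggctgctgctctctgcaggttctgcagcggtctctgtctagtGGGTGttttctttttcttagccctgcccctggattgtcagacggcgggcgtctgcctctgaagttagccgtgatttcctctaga
Ednrb: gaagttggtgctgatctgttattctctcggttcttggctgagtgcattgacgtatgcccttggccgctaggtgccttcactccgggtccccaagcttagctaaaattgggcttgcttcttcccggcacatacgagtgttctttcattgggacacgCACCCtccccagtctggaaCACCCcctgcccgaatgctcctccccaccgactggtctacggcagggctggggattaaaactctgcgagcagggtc
The Edn1 gene itself lies at chr13:42301476-42307990 and the Ednrb gene at chr14:103814625-103844402 in the GENCODE annotation. The Edn1 stretch held no annotated exon of that gene, and the Ednrb stretch was intronic in 1 of 3 annotated Ednrb transcripts and exonic in 0. Both stretches held 2 matches of CACCC, at 197 to 193 and 84 to 80 bases before the start in Edn1 and at 95 to 91 and 76 to 72 bases before the start in Ednrb. A match was present in 52.0% of 32851 such stretches, so holding one did not set these genes apart. The letters ACGTG (hypoxia-inducible factor), TGANTCA (AP-1) and GATAA (GATA factors), searched on both strands, were in neither stretch, against 16.6%, 6.75% and 22.6% of all stretches. In the 50 bases after the start, Edn1 held ACGTG and GATAA on the other strand, which 3.51% and 3.71% of such stretches held on either strand. Both genes also held CACCC there on the other strand, at bases 34 to 38 in Edn1 and 27 to 31 in Ednrb, beside 11.8% of such stretches. These are matches of letters and not sites of binding.

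Each library held from 10390216 to 16949088 counted reads, with from 16231 to 19581 genes detected, and the libraries differed in transcripts of other liver cells. Markers of sinusoidal endothelium, 23 genes with Stab2 among them, summed to between 1820 and 2165 CPM (counts scaled to one common library total) after hepatectomy at POD1 and to between 39184 and 47471 CPM in sham at POD2. Neutrophil markers, 15 genes with S100a8 among them, ran the other way, from 233654 to 276480 CPM down to 3791 to 9032 CPM in the same groups. The mean log2(CPM + 1) of the sinusoidal genes, the sinusoidal score, was at most 8.07 in 9 libraries and at least 9.58 in the other 15. Those low in the score came from hepatectomy at POD1 (all 3), POD3 and POD4 (replicate 1 each) and from sham at POD1 (replicates 1 and 2) and POD4 (replicates 2 and 3). In these bulk libraries, fewer cells of a type and less RNA per cell cannot be told apart. CPM here are relative to the library total after TMM scaling, and the differences are log2 of hepatectomy over sham from the edgeR fit, with an approximate standard error (SE).

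Edn1 RNA was abundant after hepatectomy at POD1 and scarce in the other 7 groups. Its libraries held 354, 216 and 189 CPM, against 6.51, 8.12 and 2.74 CPM in sham at POD1. Without TMM scaling these were 163, 110 and 87.6 CPM against 4.34, 6.88 and 3.76 CPM. The groups did not overlap, and their difference, which chose the gene, was 5.46 ± 0.71 on the log2 scale. Per kilobase of exon, Edn1 then averaged 118 CPM, above the other 7 genes, which lay between 1.79 and 9.03 CPM per kilobase in that group. One day later hepatectomy libraries held 1.21, 1.63 and 1.37 CPM of Edn1, so that the log2 difference from POD1 to POD2 was -7.48 ± 0.78. Edn1 was then among the scarcest of the 8 genes per kilobase, at 0.655 CPM against 0.345 CPM for Ednra.

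From POD2 on, Edn1 stayed low after both operations, with the sham libraries mostly below the hepatectomy libraries. Sham held 0.519, 1.12 and 0.735 CPM at POD2, and the log2 difference there was 0.83 ± 0.66. At POD3 hepatectomy held 7.58, 2.57 and 1.32 CPM and sham 0.681, 0.05002 and 0.402 CPM. The 2 groups did not overlap on either day, and the POD3 difference was 3.35 ± 0.72. The highest POD3 value came from replicate 1, low in sinusoidal markers, without which the difference was 2.41, and the sham value of 0.05002 CPM was 1 read. At POD4 hepatectomy held 3.42, 1.47 and 3.13 CPM and sham 0.780, 2.20 and 2.26 CPM, which overlapped, with a difference of 0.64 ± 0.65. The groups in order of mean Edn1 were hepatectomy POD1, sham POD1, hepatectomy POD3, hepatectomy POD4, sham POD4, hepatectomy POD2, sham POD2 and sham POD3, and neighbours overlapped except at the first step and between hepatectomy POD2 and sham POD2. Among the hepatectomy libraries alone, neither POD3 against POD2 (log2 1.42 ± 0.63) nor POD4 against POD3 (-0.50 ± 0.61) passed edgeR's quasi-likelihood test with Benjamini-Hochberg adjustment, both with an adjusted p of 1.00.

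**Figure D1:**
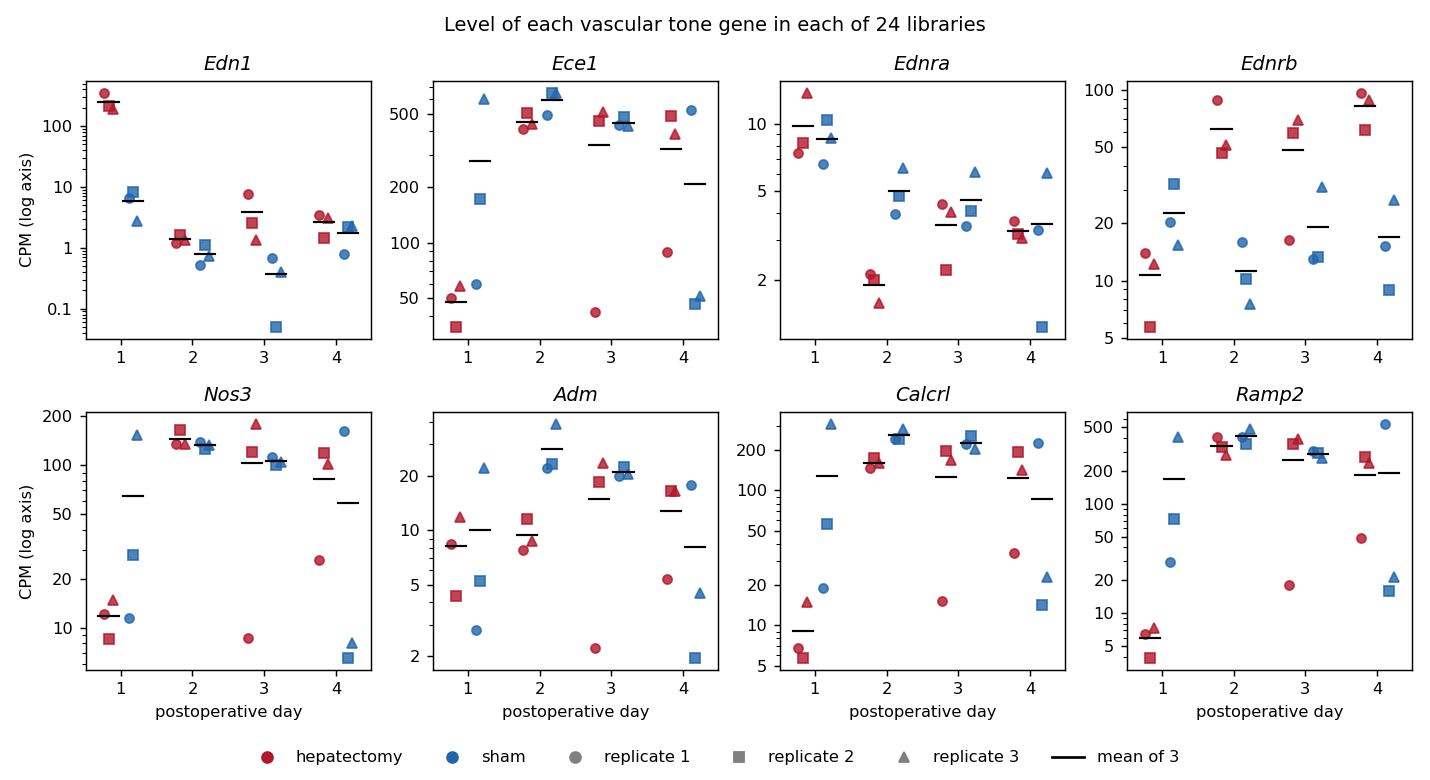
Each panel shows 1 gene, with CPM on a log axis against postoperative day. Points are libraries (red hepatectomy, blue sham, shape by replicate number) and lines are means of 3. Edn1 is high only in the 3 hepatectomy libraries of POD1, at 189 to 354 CPM, and Ednrb is higher after hepatectomy than after sham from POD2, apart from 1 hepatectomy library at POD3 with 16.3 CPM.

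Ece1, whose protease releases the active peptide, did not follow Edn1. Its hepatectomy libraries held 50.4, 35.0 and 58.1 CPM at POD1 and 411, 503 and 437 CPM at POD2. The POD2 libraries were all higher, and Ece1 rose by log2 3.23 ± 0.98 (edgeR, adjusted p = 0.0105). Sham libraries held 60.0, 172 and 602 CPM at POD1 and 492, 642 and 648 CPM at POD2. Replicate 3 of sham POD1, the 1 library of that group rich in sinusoidal markers, was the one that stood at the POD2 level. Ece2, a related protease, stayed between group means of 1.25 and 3.39 CPM.

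Ednrb, the type B receptor, was higher after hepatectomy than after sham on the later days, over the mean of which it was the called member among the 7 other than Edn1. At POD2 hepatectomy libraries held 88.6, 46.8 and 51.4 CPM and sham libraries 15.9, 10.3 and 7.52 CPM, with no overlap. At POD3 hepatectomy held 16.3, 59.7 and 69.7 CPM and sham 12.9, 13.4 and 31.1 CPM, and here replicate 1 of hepatectomy fell within the sham range. At POD4 hepatectomy held 96.5, 61.8 and 88.9 CPM and sham 15.2, 8.93 and 26.4 CPM, again with no overlap. On single days Ednrb did not pass over all genes: the log2 differences were 2.47 ± 0.55 at POD2 (edgeR, adjusted p = 0.0877), 1.35 ± 0.53 at POD3 (adjusted p = 0.457) and 2.29 ± 0.54 at POD4 (adjusted p = 0.422). DESeq2 called Ednrb higher at POD2 (adjusted p = 0.00117) and POD4 (adjusted p = 0.0259), and so did limma voom with quality weights on all 3 days. Over all genes DESeq2 called 0.81% higher at POD2 and 0.209% at POD4, and voom called between 12.8% and 27.8% higher on these days. Without replicate 1 of hepatectomy POD3, edgeR's adjusted p at POD2 was 0.0403. Most alternatives did not call Ednrb on a single day. Of 34 alternatives, these among them, 6 called it at POD2, 1 at POD3 and 2 at POD4, and the adjusted p at POD2 reached 0.607.

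Over the mean of POD2, POD3 and POD4, a comparison added after the data were seen, Ednrb was higher after hepatectomy by log2 2.03 ± 0.31, at 64.4 against 15.7 CPM (edgeR, adjusted p = 0.00163). In that comparison 2.16% of all genes tested were called higher and 0.614% lower. Of the 7 members other than Edn1, 1 was called higher and 0 were called lower. The difference stayed past the threshold in all 34 alternatives, with log2 values from 1.91 to 2.36 and adjusted p from 2.28e-08 to 0.00711. Edn1 differed by 1.61 ± 0.39 in the same comparison, which is a description here.

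Markers of other cells were read in the same comparison. Of the 23 sinusoidal markers 0 were called over POD2 to POD4, with 0 under an unadjusted p of 0.05, and with the sinusoidal score as a covariate the Ednrb difference was 2.03 (adjusted p = 0.000127). Among the 15 libraries rich in sinusoidal markers, the 7 of hepatectomy held 46.8 to 88.9 CPM of Ednrb and the 8 of sham 7.52 to 31.1 CPM, as a description. Their scores were not equal, at 9.58 to 10.12 after hepatectomy and 9.925 to 10.48 after sham. Ednrb went down as the score went up in these 15 (Pearson's r -0.80). In the 9 libraries low in the score, POD1 among them, Ednrb held 5.72 to 96.5 CPM after hepatectomy and 8.93 to 32.2 CPM after sham. Of 13 tested neutrophil markers 0 were called, with 0 under an unadjusted p of 0.05. Of 6 monocyte markers 3 were called higher over POD2 to POD4, namely Ccr2, Fn1 and F13a1, and 0 lower. At POD2 the 6 summed to between 410 and 770 CPM after hepatectomy and to between 51.5 and 150 CPM after sham, with Chil3 the most abundant of the list. Of 14 stellate cell and fibroblast markers 3 were called higher (Col1a1, Col1a2 and Col3a1) and 4 lower (Reln, Hand2, Dcn and Colec11). The other lists held 0 to 2 called members each. Of 4 tested cholangiocyte markers Spp1 was called higher, and the list's 5 genes summed to between 78.3 and 316 CPM in the hepatectomy libraries of POD2 to POD4 and to between 9.16 and 72.7 CPM in the sham libraries, without overlap. Of 6 platelet markers Pf4 was called higher, and their sum at POD2 was 56.5 to 102.6 CPM against 23.2 to 32.9 CPM. Wnt9b was called higher among 8 markers of other vascular endothelium, and Pdpn higher beside Reln lower among 4 tested lymphatic markers. Of 10 Kupffer cell and 11 hepatocyte markers 0 were called, with 0 under an unadjusted p of 0.05 in each. The part of any of these cells in the Ednrb difference was not tested.

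Ednrb also changed with time after hepatectomy. From 14.02, 5.72 and 12.3 CPM at POD1 it rose to the POD2 values above, by log2 2.54 ± 0.55 (edgeR, adjusted p = 0.00152). Sham libraries of POD1 held 20.2, 32.2 and 15.3 CPM, all above the hepatectomy libraries of that day, which left a log2 difference of -1.08 ± 0.53 at POD1. The hepatectomy groups of POD4, POD2 and POD3 had the highest means and overlapped each other, and each next group in the order of means overlapped its neighbour. The 5 genes whose log2(CPM + 1) ranked the 24 libraries most like Ednrb, out of 9239 compared, were Sulf2 (Spearman's rho 0.894), Emp1 (0.890), Arg1 (0.889), Cbr2 (0.864) and Slco2b1 (0.864). These correlations describe libraries that share groups and cell content. Arg1, the arginase that competes with nitric oxide synthases for arginine, averaged 173 CPM after hepatectomy and 21.1 CPM after sham over POD2 to POD4. Its likeness to Ednrb chose it, so this difference is a description.

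Ednra, the type A receptor of contractile cells, was scarce throughout and fell in hepatectomy libraries between POD1 and POD2. It held 7.40, 8.24 and 13.9 CPM at POD1 and 2.12, 1.99 and 1.56 CPM at POD2, a fall without overlap of log2 -2.37 ± 0.45 (edgeR, adjusted p = 0.000590). With library size alone as the scale in edgeR the value was -1.09 and the adjusted p 0.0539, so the call was lost on that scale. Of 34 alternatives 33 kept the call, and 0 reversed its direction. Sham held 6.63, 10.4 and 8.71 CPM at POD1 and 3.94, 4.76 and 6.39 CPM at POD2. At POD2 all hepatectomy libraries lay below all sham libraries, with a log2 difference of -1.41 ± 0.43 that did not pass in edgeR (adjusted p = 0.280) and passed in DESeq2 (adjusted p = 0.0486).

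Contractile and stellate cell markers stood in the same order as Ednra at POD2. The 14 stellate cell and fibroblast markers summed to between 281 and 349 CPM after hepatectomy and to between 499.5 and 808 CPM after sham. Of the 14, 2 were called lower, beside 0.0628% of all genes tested. Reln, made by stellate and lymphatic endothelial cells, held 12.3 to 19.7 CPM against 40.1 to 69.8 CPM. The 7 smooth muscle and pericyte markers summed to between 69.3 and 86.6 CPM against 99.4 and 109 CPM, and Myh11, the myosin of smooth muscle, lay between 0.0605 and 2.22 CPM over all 24 libraries. At POD1 the stellate sums were 422 to 592 CPM after hepatectomy and 657 to 880 CPM after sham, while Ednra overlapped. Of the 14, 0 were called higher there and 10 lower, beside 13% and 28% of all genes tested. From POD1 to POD2 after hepatectomy, 5 of the 14 rose and 2 fell, beside 34.5% and 21.9%. In that comparison 0 of 5 tested smooth muscle and pericyte markers rose and 2 fell. The part of these cells in the Ednra values was not tested. On POD3 and POD4 the Ednra groups overlapped, with 4.37, 2.21 and 4.01 CPM after hepatectomy against 3.47, 4.05 and 6.10 CPM at POD3, and 3.67, 3.22 and 3.08 CPM against 3.33, 1.22 and 6.07 CPM at POD4. The log2 differences there were -0.37 ± 0.42 and -0.09 ± 0.43.

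**Figure D2:**
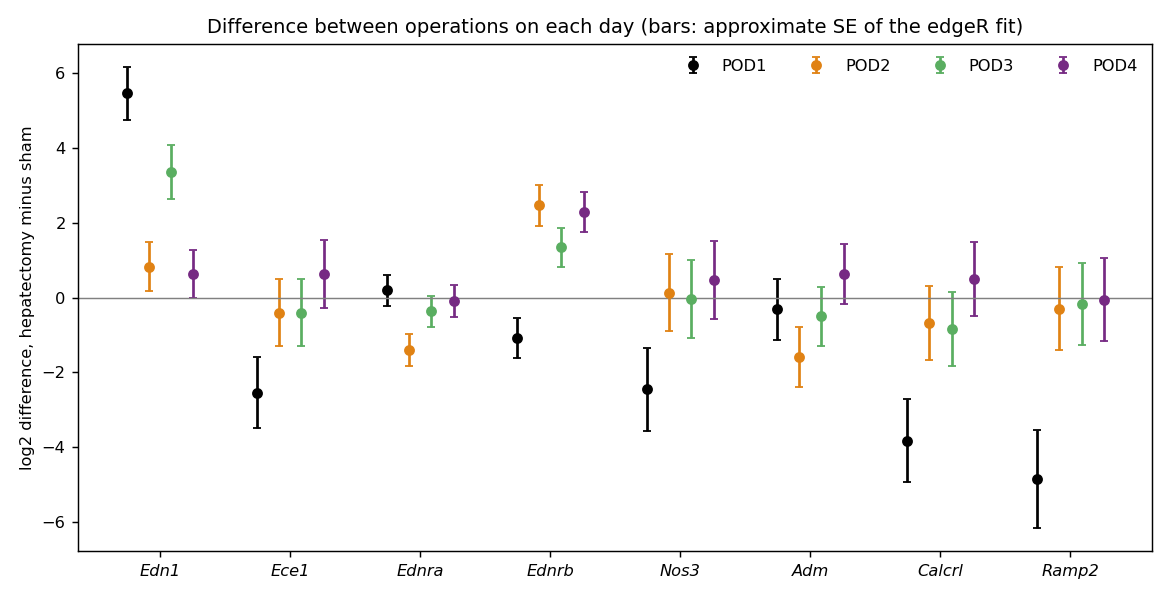
Log2 difference, hepatectomy minus sham, for each of the 8 genes on each postoperative day. Points are estimates of the edgeR fit on 3 against 3 libraries and bars are approximate SEs. Ednrb lies at -1.08 on POD1 and at 1.35 to 2.47 on the later days, while Ece1, Nos3, Calcrl and Ramp2 lie between -4.85 and -2.45 on POD1 and between -0.83 and 0.64 on the later days.

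Nos3, the endothelial nitric oxide synthase, rose in hepatectomy libraries from 12.1, 8.52 and 14.8 CPM at POD1 to 135, 165 and 135 CPM at POD2. These did not overlap, and the difference was log2 3.62 ± 1.16 (edgeR, adjusted p = 0.0138), with an adjusted p of 0.0512 when replicate 2 of hepatectomy POD1 was left out. Sham at POD2 held 139, 126 and 132 CPM, of which 1 lay within the range of the hepatectomy libraries and 2 below it. At POD3 hepatectomy held 8.65, 120 and 179 CPM and sham 112, 100 and 104 CPM. At POD4 hepatectomy held 26.0, 118 and 101 CPM and sham 162, 6.49 and 8.09 CPM. The low values on both days were those of the libraries low in sinusoidal markers.

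Adm, the dilator peptide, was lower after hepatectomy at POD2 in every library, without passing the test. Hepatectomy held 7.81, 11.6 and 8.73 CPM and sham 22.3, 23.4 and 39.0 CPM. The log2 difference was -1.59 ± 0.81 (edgeR, adjusted p = 0.578), and a fit of the 6 POD2 libraries by themselves, which called 15.9% of its genes higher and 13% lower, gave -1.60 with an adjusted p of 0.00454. On that day the sinusoidal score lay between 9.79 and 10 after hepatectomy and between 10.2 and 10.5 after sham. At POD3 the groups overlapped, at 2.22, 18.7 and 23.7 CPM against 20.1, 22.6 and 20.6 CPM, and at POD4 they did too, at 5.34, 16.5 and 16.6 CPM against 17.9, 1.96 and 4.52 CPM. Adm did not rise with Edn1 at POD1, where hepatectomy held 8.44, 4.33 and 11.8 CPM and sham 2.81, 5.26 and 22.2 CPM. Most like Adm over the 24 libraries was Pam (rho 0.943), whose enzyme amidates peptide hormones such as adrenomedullin, followed by Polr3f (0.929), Spred2 (0.929), Creb3l2 (0.928) and Tbc1d9b (0.924). Those most like Edn1 were Mmp2 (0.876), Plekhg2 (0.873), Irf2bp2 (0.872), Il2rg (0.861) and Ik (0.860).

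Calcrl, the adrenomedullin receptor, and Ramp2, its partner, rose together after hepatectomy between POD1 and POD2. Calcrl went from 6.75, 5.72 and 14.9 CPM to 147, 175 and 159 CPM, by log2 4.13 ± 1.12 (edgeR, adjusted p = 0.00563). Ramp2 went from 6.49, 3.91 and 7.30 CPM to 410, 328 and 279 CPM, by 5.84 ± 1.37 (adjusted p = 0.00239). Neither overlapped between the days, and per kilobase Ramp2 averaged 103 CPM at POD2, the highest of the 8 genes in that group. Sham libraries held 19.0, 56.8 and 312 CPM of Calcrl and 29.4, 72.5 and 408 CPM of Ramp2 at POD1. At POD2 they held 241, 241 and 285 CPM of Calcrl and 410, 355 and 481 CPM of Ramp2.

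Counted together, 5 of the 7 members other than Edn1 rose and 1 fell after hepatectomy from POD1 to POD2, beside 34.5% and 21.9% of all genes tested. The 5 were Ece1, Ednrb, Nos3, Calcrl and Ramp2, the one that fell was Ednra, and Adm did not pass (0.20 ± 0.81, adjusted p = 0.844). In the same comparison 21 of 23 sinusoidal markers rose and 8 of 13 tested neutrophil markers fell. With the sinusoidal score as a covariate in edgeR, 3 differences turned to falls past the threshold. They were -0.997 for Ece1 (adjusted p = 0.000945), -1.34 for Nos3 (adjusted p = 0.000379) and -3.43 for Adm (adjusted p = 4.19e-07). Calcrl turned to -0.43 (adjusted p = 0.132) and Ramp2 shrank to 0.56 (adjusted p = 0.160), neither past the threshold. Ednrb kept 2.08 (adjusted p = 0.0402) and Ednra -2.34 (adjusted p = 0.00365) in that fit. The score of the POD1 libraries (4.42 to 5.36) did not overlap that of POD2, so the covariate and the day cannot be told apart, and the score shares its cells with endothelial genes.

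At POD1 itself the log2 differences of Ece1, Nos3, Calcrl and Ramp2 were -2.54 ± 0.95, -2.45 ± 1.10, -3.82 ± 1.11 and -4.85 ± 1.31. Without replicate 3 of sham POD1, rich in sinusoidal markers, these became -1.28, -0.74, -2.06 and -3.11, and Adm moved from -0.31 to 1.01. All 23 sinusoidal markers were tested at POD1, and 20 were called lower, beside 28% of all genes tested. The operations overlapped at POD1 in Nos3, Ednra (0.19 ± 0.42) and Adm (-0.31 ± 0.81).

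From POD2 on, Ece1, Nos3, Calcrl and Ramp2 did not pass between operations. Ece1 held 42.2, 458 and 511 CPM after hepatectomy and 431, 479 and 427 CPM after sham at POD3, then 89.6, 487 and 387 CPM against 522, 46.6 and 51.5 CPM at POD4. Calcrl held 15.1, 196 and 168 CPM against 219, 253 and 203 CPM at POD3, then 34.6, 194 and 141 CPM against 224, 14.2 and 22.8 CPM at POD4. Ramp2 held 18.1, 353 and 390 CPM against 306, 292 and 261 CPM at POD3, then 48.4, 268 and 238 CPM against 538, 16.2 and 21.3 CPM at POD4. In each of these genes the low values were replicate 1 of hepatectomy on both days and replicates 2 and 3 of sham POD4, the libraries low in sinusoidal markers. The 12 daily differences of the 4 genes ran from -0.83 (Calcrl at POD3) to 0.64 (Ece1 at POD4), with SEs of 0.90 to 1.10 and a lowest adjusted p of 0.875. Leaving out replicate 1 of sham POD4, the one library of that group rich in sinusoidal markers, raised the highest of the 12 to 3.50. Calcrl was lower in every hepatectomy library than in every sham library at POD2 and POD3, by -0.68 ± 0.98 and -0.83 ± 0.99.

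Over the mean of POD2 to POD4 the differences were -0.06 ± 0.52 for Ece1, 0.19 ± 0.60 for Nos3, -0.34 ± 0.57 for Calcrl and -0.17 ± 0.64 for Ramp2. Ednra differed by -0.62 ± 0.25 and Adm by -0.48 ± 0.46. None of these 6 passed in edgeR, with adjusted p from 0.282 for Ednra to 0.998 for Ece1.

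**Figure D3:**
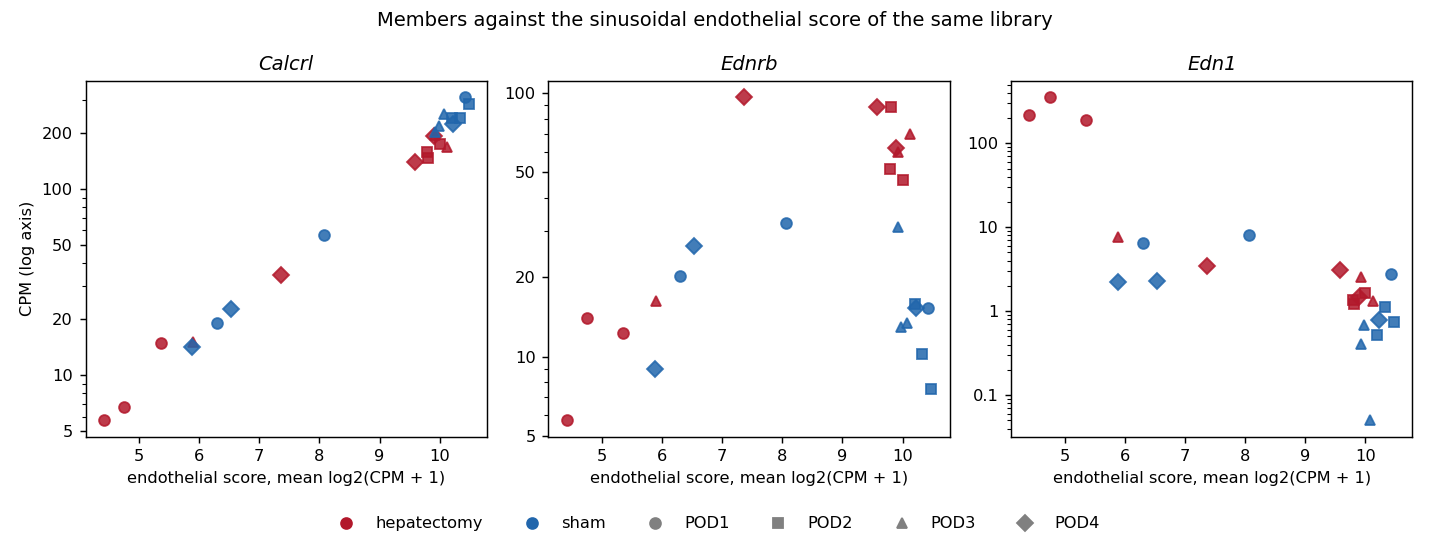
CPM of Calcrl, Ednrb and Edn1 (log axes) against the sinusoidal score of the same library, the mean log2(CPM + 1) of 23 marker genes. Red is hepatectomy, blue is sham, and shapes are days. Calcrl climbs with the score from 5.72 to 312 CPM, whereas among libraries with scores of 9.58 and above Ednrb lies at 46.8 to 88.9 CPM after hepatectomy and 7.52 to 31.1 CPM after sham.

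Counts of called members on single later days were 0 higher and 0 lower of the 7 other than Edn1 at POD2, POD3 and POD4 in edgeR. Over all genes tested, 0.0349% were called higher and 0.0628% lower at POD2, 0.0209% higher and 0% lower at POD3, and 0% either way at POD4. At an unadjusted p of 0.05 the members were 2 of 7 at POD2, 1 at POD3 and 1 at POD4, beside 8.87%, 7.58% and 4.81% of all genes. DESeq2 called Ednrb higher and Ednra lower at POD2 and Ednrb higher at POD4. The operation effect did not differ between POD2, POD3 and POD4 past the threshold for any of the 7 (edgeR F test, adjusted p from 0.976 to 0.997, 0 of 7 under an unadjusted p of 0.05), beside 0% of all genes called and 3.47% under that unadjusted p. Between consecutive days from POD2 to POD4 the 7 members moved by log2 -0.50 to 0.89 and -0.46 to 0.76 after hepatectomy and by -0.54 to 0.77 and -1.37 to -0.18 after sham. In each of these 4 comparisons 0 of 7 were called, 0 of 7 were under an unadjusted p of 0.05 in edgeR, and 0% of all genes were called.

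Another 99 genes of vessel tone in 10 classes were listed beside these, 65 of which passed the filter. At POD1, 7 of the 65 were called higher after hepatectomy and 27 lower, beside 13% and 28% of all genes. The highest were Sphk1 (4.25 ± 0.91), which makes sphingosine 1-phosphate, Ptgir (3.17 ± 0.86), the prostacyclin receptor, and Hmox1 (2.44 ± 0.56), which makes carbon monoxide. The lowest were Tbxa2r (-7.97 ± 1.77), the thromboxane receptor, Enpep (-6.07 ± 1.47), which cleaves angiotensin, and Npr1 (-5.31 ± 1.33), a natriuretic peptide receptor. The median of the 65 was -0.95 against -0.42 for all genes tested, a median that was -1.43 with library size as the only scale, where 610 genes were called higher and 8066 lower in place of 1857 and 4009. Of the 15 tested genes of nitric oxide and cyclic GMP, 2 were higher and 10 lower, and all 3 tested natriuretic peptide genes were lower.

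From POD2 to POD4, 1 of the 65 passed on a single day, called lower at POD2 beside 0.0628% of all genes. Agtr1a, the angiotensin II receptor that contracts smooth muscle and stellate cells, held 2.18, 1.69 and 1.56 CPM after hepatectomy at POD2 and 4.07, 8.02 and 9.56 CPM after sham, without overlap. It was lower by log2 -1.99 ± 0.35 (edgeR, adjusted p = 0.0357), the same direction and day as the Ednra values. At an unadjusted p of 0.05 the list held 20 of 65 at POD2, 7 at POD3 and 5 at POD4, beside 8.87%, 7.58% and 4.81% of all genes. DESeq2 called 2 higher and 5 lower of the list at POD2, beside 116 and 95 of all genes, and 3 higher at POD3, beside 271. The list's medians were -0.04, 0.18 and 0.19 on these days, against -0.02, 0.01 and -0.02 for all genes.

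Over the mean of POD2 to POD4, Sphk1 and Ackr3 were called higher and Agtr1a lower among the 65. These are 2 and 1 of 65, beside 2.16% called higher and 0.614% called lower of all genes tested. Ackr3, a scavenging receptor that binds adrenomedullin and was picked after its values were seen, held 57.4, 64.4 and 57.6 CPM after hepatectomy at POD2, 5.44, 40.4 and 62.2 CPM at POD3 and 23.6, 34.2 and 29.5 CPM at POD4. Its sham libraries held 3.55 to 14.2 CPM over those days, and the 1 hepatectomy value within that range was replicate 1 of POD3. The difference was log2 2.15 ± 0.42 (edgeR, adjusted p = 0.00616). Sphk1 held 0.276 to 1.503 CPM after hepatectomy and 0 to 0.476 CPM after sham, where 4 of 9 libraries were at 0 reads. Its fitted difference was 3.35 ± 0.62 (edgeR, adjusted p = 0.00466). How far that value depends on the libraries at 0 reads was not tested. Agtr1a differed by -0.89 ± 0.20 (adjusted p = 0.0169). The list's median was 0.10 against 0.02 for all genes.

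After hepatectomy from POD1 to POD2, 26 of the 65 rose and 16 fell, beside 34.5% and 21.9% of all genes. Those that rose included Tbxa2r, Enpep and Npr1, and those that fell included Sphk1, Ptgir and Hmox1. These genes were picked for their differences at POD1, and this comparison uses the same hepatectomy POD1 libraries. Their reversal is therefore a description. Nos2, the inducible nitric oxide synthase, picked after its values were seen, fell from a mean of 940 to 15.7 CPM (log2 -5.91 ± 2.00, adjusted p = 0.0189), opposite to Nos3.

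**Figure D4:**
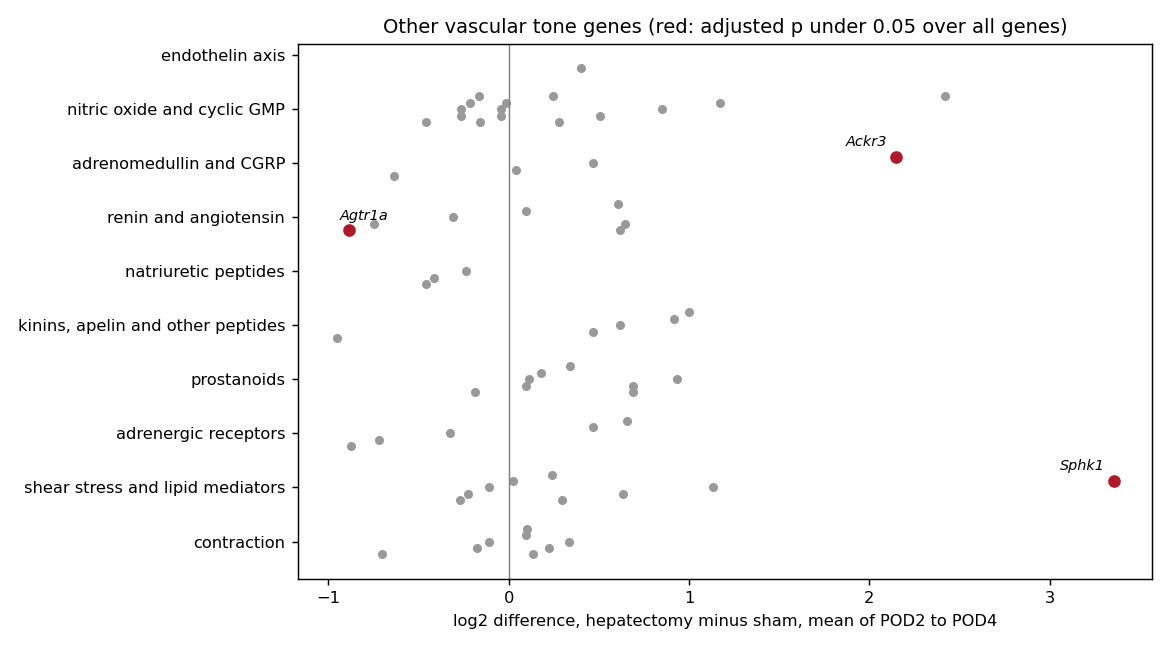
Log2 difference over the mean of POD2 to POD4, hepatectomy minus sham, for the 65 tested genes of vessel tone outside the 8, by class. Red points passed an adjusted p of 0.05 over all genes (edgeR), which were Ackr3 at 2.15, Sphk1 at 3.35 and Agtr1a at -0.89, and grey points did not.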

How the data were processed

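RNA of CD11b+ Ly6G+ cells from mouse liver was sequenced in 24 libraries. Per the submitters' processing notes, the tools were cutadapt, STAR 2.4.2a and HTSeq with the GRCm38 build; the annotation release and the strand setting are not given in the sources used here. The deposited table holds the authors' raw counts per gene symbol, whole numbers, and 0 of its value columns were left unmapped. Depth was from 10390216 to 16949088 counts.

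The members and all gene lists were chosen with earlier results of these data known. Groups were taken from the sample titles. Counts were fitted with edgeR 4.0.16 (R 4.3.3) in 1 quasi-likelihood model of 24 libraries in 8 groups with 16 residual degrees of freedom, TMM scaling and filterByExpr, and two-sided p-values were adjusted by Benjamini-Hochberg over 14325 genes at 0.05. The SE is the log2 difference divided by the square root of F. The planned edgeR test of Edn1 against sham at POD2 to POD4 is not printed, since sham levels entered its choice. CPM per kilobase used exon lengths of GENCODE M21, and start regions came from RefSeq (GRCm38.p6). Promoter sequences of 6 members were matched, and those of Nos3 and Ramp2 were not used here. Genes most like a member were the 5 with the highest Spearman correlation among genes with a mean of at least 5 CPM. Of the other vessel tone genes, those called on POD2, POD3 or POD4 and the 3 highest and 3 lowest at POD1 were named. Alternatives were DESeq2 1.42.0, limma 3.58.1 voom with quality weights, other scalings, other filters, a replicate block, the sinusoidal score as a covariate, a day or operation by itself, no 4 libraries low in sinusoidal markers, and leaving out each library. The model was also run on simulated counts with 200 genes changed in hepatectomy POD2 and equal means otherwise. That setting lacks the differences in cell content seen in these libraries, so nothing is concluded from it here.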

Additional observations from a re-analysis of the deposited data

Results flagged for a closer look

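Ednrb moved in opposite directions on different days: all 3 hepatectomy libraries lay below all 3 sham libraries at POD1 (log2 difference -1.08), and all lay above at POD2 (2.47) and POD4 (2.29). The effect at POD2 exceeded that at POD1 by 3.55 on the log2 scale, and the effect at POD4 exceeded it by 3.37. The difference was not tested, because POD1 entered the choice of these genes. At POD1 the sinusoidal markers summed to between 1820 and 2165 CPM in hepatectomy libraries and to between 2349 and 44557 CPM in sham libraries, and their part in the Ednrb values was not tested.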

How the results depend on the processing

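The members' log2 differences were compared under alternatives that kept every group complete or left out 4 libraries low in sinusoidal markers. Of these values 378 stayed the same, 19 newly passed, 2 no longer passed, 23 untested values moved beyond the spread and 18 turned direction. They leave out the differences between operations of Ece1, Nos3, Calcrl and Ramp2 on the single days POD2, POD3 and POD4. Changes between consecutive days from POD2 on are left out too. Tested values stayed the same if they kept direction and side of the threshold, and untested values if they moved less than the spread. Untested values that changed sign within the spread, or from a main value short of the threshold, are not among the 18. Ednrb over POD2 to POD4 kept its direction and side of the threshold in all 34 alternatives. The causes of the changes below were not tested. With the sinusoidal score as a covariate, the POD1 differences became 0.93 for Ece1 and 0.14 for Calcrl, the hepatectomy changes from POD1 to POD2 became -0.997 for Ece1, -1.34 for Nos3, -3.43 for Adm and -0.43 for Calcrl, and the means over POD2 to POD4 became 0.0505 for Ece1 and 0.13 for Ramp2. With limma voom, which down-weights divergent libraries, those means became 0.83 for Ece1, 0.31 for Adm, 0.57 for Calcrl and 1.14 for Ramp2, and Adm at POD3 became 0.043 and Ednra at POD4 0.43. Ednra at POD4 became 0.16 with library size as the only scale. Without TMM scaling, 24 of the members' group mean CPM moved beyond the spread of their group and 40 did not. Mean Ednra at POD1 was 9.84 CPM after hepatectomy against 8.59 CPM in sham with TMM scaling, and 4.69 against 8.41 CPM without it. Without the 4 libraries of POD3 and POD4 low in sinusoidal markers, Adm became 0.0086 at POD3 and -0.12 at POD4.

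Of the 7 members other than Edn1, the number called higher at POD2 was 2 with the covariate and 1 with POD2 alone, without the 4 libraries, with voom and with DESeq2, and the number called lower was 2 with the covariate, 3 with POD2 alone, 2 with voom and 1 with DESeq2, against 0 in edgeR. Calls rose over all genes too: at POD2 the shares higher and lower were 6.19% and 2.31% with the covariate, 15.9% and 13% with POD2 alone, 0.745% and 0.452% without the 4 libraries, 19% and 13.7% with voom and 0.81% and 0.663% with DESeq2. Voom called 1 higher at POD3 and 6 at POD4, beside 12.8% and 27.8% of all genes, and DESeq2 called 1 higher at POD4, beside 0.209%. Over POD2 to POD4, 2 were higher and 1 lower with the covariate, beside 8.28% and 4.97%, and 4 were higher with voom, beside 22.6%. Of the other vessel tone genes at POD2, DESeq2 called 2 higher and 5 lower, leaving out the 4 libraries gave 1 and 3, and library size as the only scale gave 0 lower. At POD3 DESeq2 called 3 higher and leaving out the 4 libraries gave 1. Over POD2 to POD4 leaving out the 4 libraries gave 6 higher and 3 lower, beside 3.28% and 1.57% of all genes, DESeq2 gave 5 lower, beside 1.8%, and library size as the only scale gave 0 lower.

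Leaving out each library in turn gave 0 to 1 members called higher at POD2. It gave ranges that crossed 0 for Adm at POD3 (-1.004 to 0.0080), Adm from POD1 to POD2 after hepatectomy (-0.10 to 0.56), Ednra at POD4 (-0.49 to 0.51), and the means over POD2 to POD4 of Ece1 (-0.21 to 0.64), Nos3 (-0.0368 to 1.197), Calcrl (-0.51 to 0.41) and Ramp2 (-0.36 to 0.95). Among untested values, the ranges of Adm (-0.76 to 1.01) and Ednra (-0.14 to 0.36) between operations at POD1 crossed 0 too. For Ece1, Nos3, Calcrl and Ramp2 on single days from POD2 to POD4, only the extremes were followed. The highest difference ran from 0.16 to 3.50 and the lowest from -1.30 to -0.68.

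The sample titles do not say whether replicate numbers pair the samples. Deviations of same-numbered hepatectomy and sham libraries correlated from -0.937 to 0.285. Replicates 1 and 3 at POD1 and replicate 1 at POD2 were closest to their own number, and the others were not. These values cannot decide on pairing, because libraries low in sinusoidal markers carried different numbers in the operations at POD4. With the number as a replicate block, Ednra at POD4 became 0.0136, no member gained or lost a call, and calls over all genes were 2 higher and 9 lower at POD2 and 251 and 65 over POD2 to POD4. Each sham library of POD2 to POD4 held between 1 and 20 reads of Edn1.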
